A study of Mus musculus with 4 samples.

Results

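Mitochondrial ribosomal protein genes were taken as every gene of the deposited matrix whose symbol begins with Mrpl or Mrps followed by a digit. There were 78 such genes among 19737, of which 49 carried a large subunit symbol (Mrpl) and 29 a small subunit symbol (Mrps). They were measured by single-cell RNA sequencing in 74758 myeloid cells sorted from the brains of 20 mice, in 5 groups of 4 mice. Of these, WT;TfRmu/hu mice carry a human apical domain in the mouse transferrin receptor and no App mutation and received ATV:ISO or ATV:4D9. The AppSAA;TfRmu/hu mice, which add a mutant humanized App knock-in that leads to amyloid plaques, received ATV:ISO, 4D9 or ATV:4D9. Of these agents, 4D9 is an activating antibody against mouse TREM2, a lipid receptor of microglia, ATV:4D9 is the same antibody with an Fc that binds the human transferrin receptor domain and so crosses the blood-brain barrier, and ATV:ISO is a control antibody with that Fc. All mice shared the TfRmu/hu allele, were dosed once intravenously at 10 mg kg−1 and were sampled after 24 hours. The recorded age was 8 months for every pool, and the AppSAA;TfRmu/hu mice were given as male and 8 months old. The age and sex of the WT;TfRmu/hu mice were not clear, because the sources used here differ. Of the 20 mice, 1, in the WT;TfRmu/hu ATV:ISO group, was recorded as female. The isotype arm was labeled ATV-DNP02 and was read as ATV:ISO. Each of 4 pools, captured and sequenced together, held 1 mouse of every group.

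The mitochondrial ribosome translates the few mRNAs encoded by the mitochondrial genome, all for subunits of the respiratory chain and ATP synthase. Its RNA comes from mitochondrial DNA, while every protein of its large and small subunit is encoded in the nucleus, made on cytosolic ribosomes and imported. Microglia, the resident macrophages of the brain, use both glycolysis and oxidative phosphorylation and shift between them when they respond to injury or TREM2 signals. Of the large subunit genes, 30 encode proteins with a bacterial counterpart and 19 encode proteins particular to mitochondria. Of the genes with an Mrps symbol, 16 and 10 fall into those classes, and the other 3 do not belong to the small subunit body in the usual assignment, since Mrps30 and Mrps18a encode proteins placed in the large subunit and Mrps36 a component of the 2-oxoglutarate dehydrogenase complex. Counts, sums and ratios of the small subunit below go by symbol and include these 3. The symbols lie on 17 chromosomes with no common cluster, and Mrpl46 and Mrps11 start head to head on chromosome 7.

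The promoters of 5 members are shown because they belong to genes at either end of the results below: Mrpl18, Mrpl33 and Mrps11, which rose with ATV:4D9, and Mrpl9 and Mrpl43, which did not. Each sequence is the RefSeq window of 300 bases in GRCm38.p6, from 250 bases before the start to 50 after it, printed in the direction of transcription. Capitals mark the only motifs searched, on both strands: GCGCATGC (NRF1), CCGGAAGT (ETS factors such as GABPA), AAGATGGC (YY1) and CACGTG (E-box, the site of MYC and others).
Mrpl18, chr17:12916042-12916341, minus strand: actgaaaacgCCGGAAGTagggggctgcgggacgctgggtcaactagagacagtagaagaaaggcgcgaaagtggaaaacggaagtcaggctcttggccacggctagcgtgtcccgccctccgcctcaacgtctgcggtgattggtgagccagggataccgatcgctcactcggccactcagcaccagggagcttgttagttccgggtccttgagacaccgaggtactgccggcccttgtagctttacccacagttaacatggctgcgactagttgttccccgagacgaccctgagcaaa
Mrpl33, chr5:31613701-31614000, plus strand: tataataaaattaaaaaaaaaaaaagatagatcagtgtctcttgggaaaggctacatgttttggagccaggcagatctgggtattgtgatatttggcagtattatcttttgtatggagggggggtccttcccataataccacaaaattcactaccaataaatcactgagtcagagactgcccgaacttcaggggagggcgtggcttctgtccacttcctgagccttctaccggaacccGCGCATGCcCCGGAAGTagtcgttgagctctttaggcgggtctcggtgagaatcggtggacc
Mrps11, chr7:78782881-78783180, plus strand: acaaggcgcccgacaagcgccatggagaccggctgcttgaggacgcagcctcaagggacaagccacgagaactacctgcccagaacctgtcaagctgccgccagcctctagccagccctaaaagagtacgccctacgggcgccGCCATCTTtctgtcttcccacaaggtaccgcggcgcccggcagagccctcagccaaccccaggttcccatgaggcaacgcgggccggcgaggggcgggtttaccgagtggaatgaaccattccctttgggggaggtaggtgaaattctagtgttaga
Mrpl9, chr3:94443086-94443385, plus strand: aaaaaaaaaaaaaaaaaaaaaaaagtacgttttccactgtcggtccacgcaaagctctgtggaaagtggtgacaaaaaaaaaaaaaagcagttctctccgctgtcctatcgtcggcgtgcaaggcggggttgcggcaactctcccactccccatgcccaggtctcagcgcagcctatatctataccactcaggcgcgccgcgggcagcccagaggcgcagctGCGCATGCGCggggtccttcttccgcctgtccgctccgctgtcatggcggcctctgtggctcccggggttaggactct
Mrpl43, chr19:45006393-45006692, minus strand: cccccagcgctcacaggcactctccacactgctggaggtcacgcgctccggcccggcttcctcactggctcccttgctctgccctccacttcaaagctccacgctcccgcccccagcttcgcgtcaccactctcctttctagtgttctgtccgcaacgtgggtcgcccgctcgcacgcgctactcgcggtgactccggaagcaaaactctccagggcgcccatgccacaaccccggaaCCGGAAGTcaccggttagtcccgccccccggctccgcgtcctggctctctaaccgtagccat
The window of Mrpl33 held NRF1 and ETS letters, that of Mrpl18 an ETS match, and that of Mrps11 a YY1 match on the opposite strand. The window of Mrpl9 held overlapping NRF1 matches on both strands, and that of Mrpl43 an ETS match. These 5 genes were picked after their values were seen. Promoter windows were found for 69 of the 78 members, and 44.9% of these held at least 1 of the 4 motifs, against 24.1% of all 13946 genes with a window, 41.0% of 61 cytosolic ribosomal protein genes and 43.5% of 62 nuclear respiratory chain genes. The shares of members and of all genes were 11.6% and 5.03% for NRF1, 17.4% and 7.29% for ETS, 17.4% and 4.3% for YY1, and 7.25% and 10.6% for the E-box. A match is only a run of letters and was not tested for binding.

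Between 2193 and 6126 cells were deposited per mouse, with 17150296 to 102446549 UMIs in all. The median UMIs per cell differed between groups, at 7566 ± 642 (SD, n = 4 mice, as for all group values below) in WT;TfRmu/hu mice dosed with ATV:ISO, 15338 ± 1625 with ATV:4D9, and 9339 ± 673, 9741 ± 1417 and 15523 ± 1335 in AppSAA;TfRmu/hu mice dosed with ATV:ISO, 4D9 and ATV:4D9. The 5 microglia markers P2ry12, Tmem119, Cx3cr1, Csf1r and Sall1 had UMIs in every mouse, with a summed level of 5632 to 11693 CPM (UMIs of a gene scaled to a common library total), lowest in the ATV:4D9 groups (6319 to 7019.6 in WT;TfRmu/hu and 5632 to 6606 in AppSAA;TfRmu/hu mice). Marker lists of other cell types summed to at most 28.6 CPM for border macrophages, 13.6 for monocytes, 22.5 for neutrophils, 2.24 for T and NK cells, 289 for the B cell list (of which Cd79a and Ms4a1 had no UMI in WT;TfRmu/hu mice dosed with ATV:ISO), 144 for astrocytes, 61.4 for oligodendrocytes, 1.79 for neurons and 51.1 for endothelial cells. Of these lists, monocyte markers were highest in AppSAA;TfRmu/hu mice dosed with ATV:4D9 (11.1 to 13.6 CPM, against 4.17 to 9.81 elsewhere), and B cell, astrocyte, oligodendrocyte and endothelial markers were lower with ATV:4D9 than with ATV:ISO by their medians in both genotypes; their part in the results was not tested. The 543 barcode sequences found in more than 1 pool belonged to separate captures. All 78 members passed the filter on low counts, which left 14058 genes. Levels below are CPM of the library total after TMM scaling (a correction for differences in RNA composition), and a call means an adjusted p under 0.05 from 1 fit of all groups and genes.

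Mitochondrial ribosomal protein transcripts were higher after ATV:4D9 in WT;TfRmu/hu mice. The large subunit sum was 2344, 2237, 1889 and 1908 CPM in the mice of pools 1 to 4 given ATV:ISO and 3714, 3176, 3093 and 3207 CPM in those given ATV:4D9. The small subunit sum was 1281, 1244, 1052 and 1059 CPM with ATV:ISO and 1883, 1628, 1577 and 1623 CPM with ATV:4D9. The groups did not overlap for either sum, which were 1.57-fold (large) and 1.45-fold (small) higher with ATV:4D9. As an unscaled share of all UMIs, the members went from 0.36% ± 0.0232 to 0.509% ± 0.0202. In UMIs per cell, where cell RNA content and depth count as well, the members went from 30.9 ± 1.13 to 85.2 ± 7.29.

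In AppSAA;TfRmu/hu mice, ATV:4D9 was followed by a shift in the same direction and 4D9 was not. The large subunit sum was 2648, 2681, 2193 and 2202 CPM with ATV:ISO, 2804, 2596, 2189 and 2190 CPM with 4D9, and 4193, 3254, 3132 and 3064 CPM with ATV:4D9. The small subunit sum was 1398, 1382, 1155 and 1158 CPM with ATV:ISO, 1472, 1363, 1145 and 1159 CPM with 4D9, and 2117, 1672, 1607 and 1573 CPM with ATV:4D9. The mice dosed with ATV:4D9 lay above all others of their genotype, by 1.40-fold for the large and 1.37-fold for the small subunit over ATV:ISO, while 4D9 and ATV:ISO overlapped with ratios of 1.01 for each. The unscaled share of the members was 0.36% ± 0.0214, 0.36% ± 0.0253 and 0.477% ± 0.0402 with ATV:ISO, 4D9 and ATV:4D9. In UMIs per cell the members were at 41.4 ± 1.37, 42.7 ± 3.50 and 81.7 ± 10.5. Pools 1 and 2 were above pools 3 and 4 for both sums in every group given ATV:ISO or 4D9, and the pool 1 mouse stood highest of both groups given ATV:4D9.

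**Figure D1:**
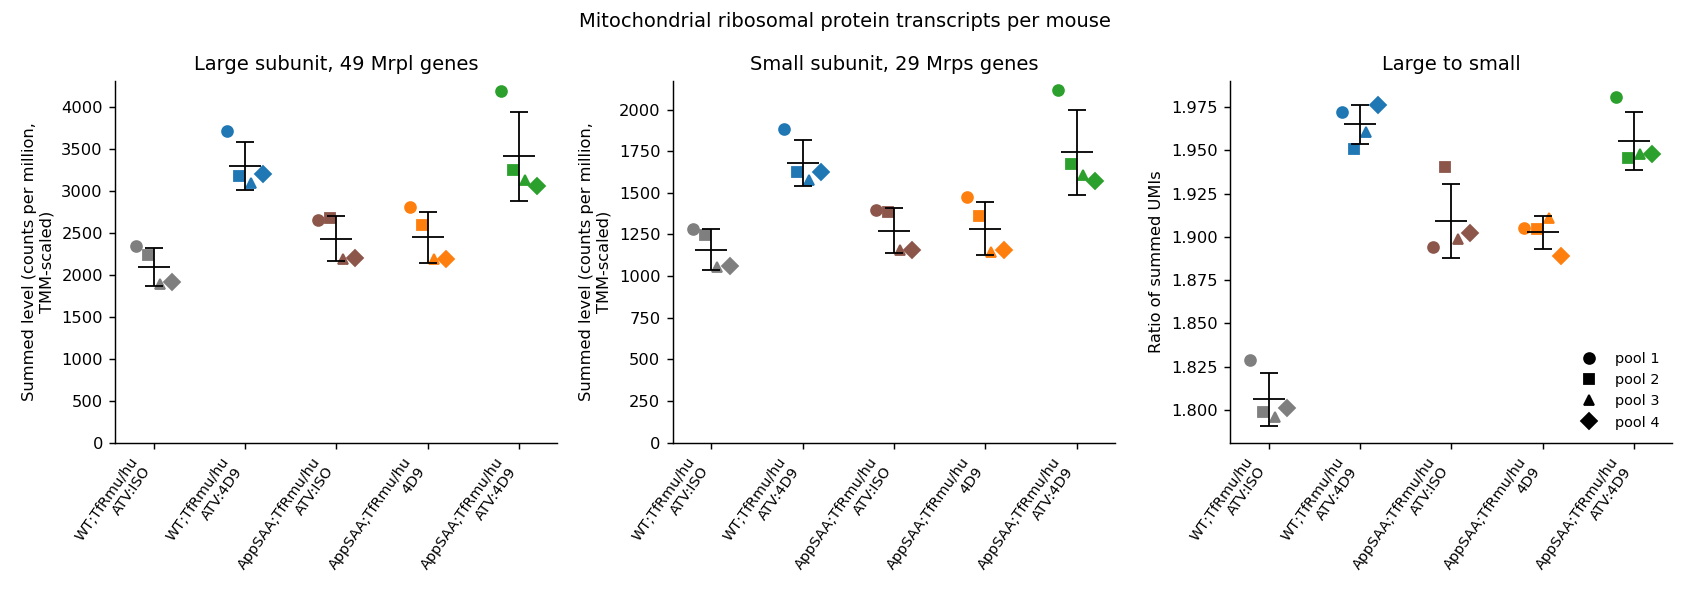
Summed level of the 49 large subunit genes (left) and 29 small subunit genes (middle) in TMM-scaled CPM, and the ratio of large to small UMIs (right, axis not from 0), for each mouse; symbols give the pool and bars the mean ± SD of 4 mice. Both sums were higher in every mouse given ATV:4D9 than in any mouse of the same genotype given ATV:ISO or 4D9, and the ratio was lowest in WT;TfRmu/hu mice dosed with ATV:ISO (1.80 to 1.83).

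The balance of the subunits also differed. The ratio of large to small subunit UMIs, which needs no scaling, was 1.81 ± 0.0154 in WT;TfRmu/hu mice dosed with ATV:ISO, 1.97 ± 0.0114 in those given ATV:4D9, and 1.91 ± 0.0213, 1.90 ± 0.00942 and 1.96 ± 0.0167 in AppSAA;TfRmu/hu mice dosed with ATV:ISO, 4D9 and ATV:4D9. The groups did not overlap between ATV:ISO and ATV:4D9 in either genotype, nor between the genotypes given ATV:ISO. No test was made for a sum or a ratio over the members.

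Gene by gene, 42 of the 49 large subunit genes and 24 of the 29 small subunit genes were called higher and none lower in WT;TfRmu/hu mice dosed with ATV:4D9 rather than ATV:ISO. Among all genes tested, 30.8% were called higher and 32.5% lower. The median log2 fold change was 0.57 for the large and 0.50 for the small subunit, against -0.05 over all genes. The mice of the 2 groups did not overlap, ATV:4D9 being above, for 40 large and 24 small subunit genes, as for 27.9% of all genes. In AppSAA;TfRmu/hu mice, 41 large and 22 small subunit genes were called higher and none lower (27.9% and 27.1% of all genes), with medians of 0.47 and 0.48 against -0.03 over all genes. Against 4D9 in place of ATV:ISO, ATV:4D9 gave 40 and 20 higher calls and none lower (27.6% and 26.7% of all genes). The call counts with pools 2 to 4 alone were 68, 59 and 62 members for these 3 comparisons (30%, 26.3% and 26.1% of all genes higher), against 66, 63 and 60 with all pools. With the pool as a block they were 75 (73 higher), 74 (73 higher) and 73 (72 higher), the rest being lower. That fit called 35.6%, 34.5% and 34.2% of all genes higher and 39%, 36.2% and 35.6% lower.

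Mrpl18, whose bacterial counterpart binds ribosomal RNA in the central protuberance, rose most in both genotypes. Its level was 65.1, 55.2, 49.4 and 50.7 CPM in the mice of pools 1 to 4 in WT;TfRmu/hu mice dosed with ATV:ISO and 171, 136, 139.9 and 144 CPM with ATV:4D9. The AppSAA;TfRmu/hu mice had 69.7, 66.8, 59.1 and 55.2 CPM with ATV:ISO, 72.0, 63.5, 57.5 and 56.9 CPM with 4D9 and 179, 126, 124 and 128 CPM with ATV:4D9. The log2 fold change for ATV:4D9 over ATV:ISO was 1.42 ± 0.13 (SE, adjusted p = 5.7e-09) for WT;TfRmu/hu and 1.15 ± 0.12 (adjusted p = 1.68e-07) in AppSAA;TfRmu/hu mice, and the groups given 4D9 and ATV:ISO overlapped.

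Mrpl12, a protein of the stalk that recruits translation factors, was at 63.4, 60.2, 45.1 and 44.4 CPM with ATV:ISO and 157, 118, 116 and 118 CPM with ATV:4D9 in WT;TfRmu/hu mice. It was at 80.9, 78.5, 62.4 and 58.6 CPM and 176, 113, 110.1 and 110.0 CPM in AppSAA;TfRmu/hu mice. The rises were 1.26 ± 0.17 (adjusted p = 2.02e-06) and 0.86 ± 0.17 (adjusted p = 2.09e-04) on the log2 scale, and in both genotypes the groups were apart, with pool 1 highest. The other stalk-base proteins moved less in WT;TfRmu/hu mice, with log2 fold changes of 0.64 ± 0.10 for Mrpl11 (adjusted p = 1.04e-05) and 0.29 ± 0.12 for Mrpl10 (adjusted p = 0.0467). Mrpl14, a core protein of the face that meets the small subunit, was at 51.9, 51.6, 43.6 and 44.3 CPM with ATV:ISO and 119, 98.1, 91.5 and 104 CPM with ATV:4D9 in WT;TfRmu/hu mice, a rise of 1.11 ± 0.11 (adjusted p = 4.22e-08). Mrpl58, a peptidyl-tRNA hydrolase that frees stalled ribosomes and is also built into the large subunit, rose by 0.58 ± 0.12 (adjusted p = 3.26e-04).

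In the small subunit, Mrps28 had the highest rise in WT;TfRmu/hu mice. It was at 31.6, 29.2, 25.3 and 22.9 CPM with ATV:ISO and 64.2, 52.9, 52.2 and 53.7 CPM with ATV:4D9. Among AppSAA;TfRmu/hu mice it was at 36.4, 38.7, 30.0 and 28.2 CPM and 79.5, 53.6, 53.6 and 51.0 CPM. The log2 fold changes were 1.04 ± 0.15 (adjusted p = 3.62e-06) and 0.84 ± 0.14 (adjusted p = 5.6e-05), with no overlap between antibodies in either genotype. Mrps11, a platform protein, was at 33.0, 29.6, 26.5 and 27.3 CPM with ATV:ISO and 58.9, 53.4, 52.5 and 51.0 CPM with ATV:4D9 in WT;TfRmu/hu mice, a log2 fold change of 0.89 ± 0.11 (adjusted p = 8.28e-07). Its head-to-head neighbor Mrpl46 rose by 0.57 ± 0.08. Mrps12, at the decoding center, was at 45.2, 42.3, 35.8 and 32.9 CPM and 65.0, 52.6, 50.8 and 49.7 CPM in the same groups, a smaller rise of 0.48 ± 0.13 (adjusted p = 0.00375) that also left the groups apart.

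Of the 3 Mrps genes placed elsewhere, Mrps36 and Mrps18a were called in WT;TfRmu/hu mice and Mrps36 alone in AppSAA;TfRmu/hu mice. Mrps36 was at 40.7, 40.5, 37.0 and 38.5 CPM with ATV:ISO and 77.5, 63.1, 65.6 and 67.2 CPM with ATV:4D9 in WT;TfRmu/hu mice, a log2 fold change of 0.80 ± 0.10 (adjusted p = 9.13e-07). GENCODE release M21 lists 3 processed pseudogenes named for Mrps36 and 1 each for Mrpl23 and Mrpl48, so reads of these members could have been split or lost. Mrps30 was at 27.4, 24.4, 21.8 and 19.1 CPM and 30.0, 26.6, 22.8 and 24.4 CPM, with overlapping ranges but the ATV:4D9 mouse above in all 4 pools (log2 fold change 0.17 ± 0.13, adjusted p = 0.277; with the pool as a block 0.17 ± 0.06, adjusted p = 0.0122). The AppSAA;TfRmu/hu mouse dosed with ATV:4D9 was also above in all 4 pools, with overlapping ranges, for Mrps18a (0.30 ± 0.14, adjusted p = 0.0653) and Mrps30 (0.27 ± 0.13, adjusted p = 0.0864). Both were called higher there with the pool as a block (0.30 ± 0.05, adjusted p = 8.43e-05, and 0.26 ± 0.06, adjusted p = 4.32e-04).

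The members not called in WT;TfRmu/hu mice were Mrpl4, Mrpl9, Mrpl22, Mrpl24, Mrpl43, Mrpl44 and Mrpl48 of the large and Mrps2, Mrps6, Mrps30, Mrps31 and Mrps35 of the small subunit. Mrpl43, a protein particular to mitochondrial ribosomes, was at 111, 104, 89.5 and 96.0 CPM with ATV:ISO and 104, 97.7, 84.8 and 91.6 CPM with ATV:4D9. Its level with ATV:4D9 was below that of the same pool's ATV:ISO mouse in all 4 pools, with a log2 fold change of -0.08 ± 0.10 (adjusted p = 0.483). Mrpl9, the counterpart of an elongated bacterial large subunit protein, was at 37.4, 39.6, 30.7 and 28.5 CPM and 35.3, 35.2, 28.7 and 27.7 CPM in these groups, and was lower in all 4 pools in AppSAA;TfRmu/hu mice too. With the pool as a block, Mrpl9 was called lower in both genotypes (log2 fold change -0.10 ± 0.04, adjusted p = 0.0233, and -0.13 ± 0.04, adjusted p = 0.0033) and Mrpl43 in WT;TfRmu/hu mice (adjusted p = 0.0229), where that fit called 35.6% of all genes higher and 39% lower in WT;TfRmu/hu mice, against 34.5% and 36.2% for AppSAA;TfRmu/hu. That fit called Mrpl4, Mrpl22, Mrpl48, Mrps2, Mrps6, Mrps30 and Mrps31 higher in WT;TfRmu/hu mice, with log2 fold changes of 0.17 to 0.28, and left Mrpl24, Mrpl44 and Mrps35 uncalled. Of these 10, the ATV:4D9 mouse was above the ATV:ISO mouse of its pool in all 4 pools except for Mrps6 (3 of 4), Mrps35 (2) and Mrpl24 (1).

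**Figure D2:**
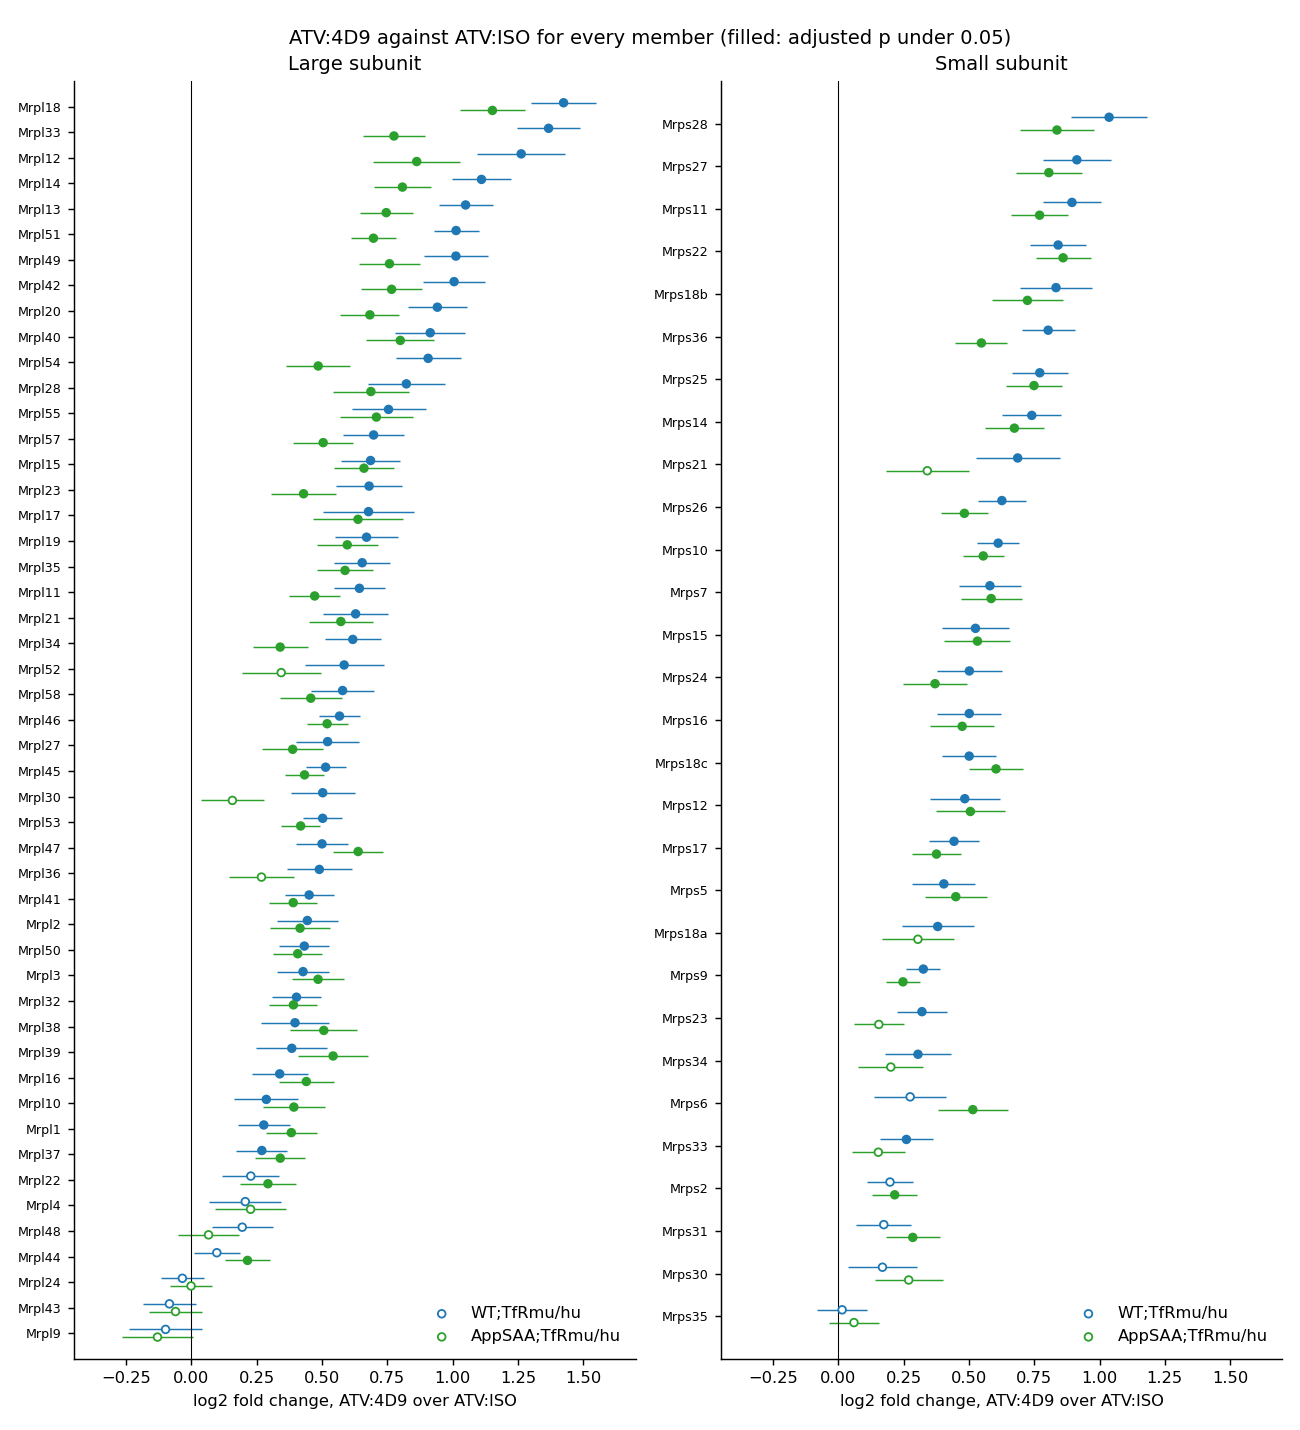
Log2 fold change (x axis) with SE of every large (left) and small (right) subunit gene for ATV:4D9 over ATV:ISO in WT;TfRmu/hu and AppSAA;TfRmu/hu mice, 4 mice a group; filled symbols were called at an adjusted p under 0.05. Mrpl18 is at the top in both genotypes (1.42 and 1.15), and Mrpl9, Mrpl24 and Mrpl43 lie at or below 0.

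By class, the calls in WT;TfRmu/hu mice covered 26 of 30 large subunit proteins with a bacterial counterpart (median log2 fold change 0.62) and 16 of 19 particular to mitochondria (0.51). In the small subunit they covered 14 of 16 (0.50) and 8 of 10 (0.47). Over all genes, 30.8% were called higher and 32.5% lower in this comparison, with a median of -0.05. The classes were not tested against each other. The 5 further mitochondrial ribosome subunits that carry other symbols were all called higher in both genotypes. Of all genes, 30.8% (WT;TfRmu/hu) and 27.9% (AppSAA;TfRmu/hu) were called higher. The log2 fold changes of these 5 subunits in WT;TfRmu/hu mice were 0.84 for Chchd1, 0.60 for Aurkaip1, 0.55 for Dap3, 0.44 for Gadd45gip1 and 0.24 for Ptcd3.

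The calls of the 2 genotypes overlapped at shares not far from those of all genes. Of 66 members called in WT;TfRmu/hu and 63 called in AppSAA;TfRmu/hu mice, 58 were called in both, which is 87.9% and 92.1% of each list (78.9% and 86.9% over all genes). The log2 fold changes of the genotypes, which share no mice but share pools, had a Spearman correlation of 0.85 across the 78 members and 0.84 across all genes. The log2 fold change was smaller in AppSAA;TfRmu/hu mice for 54 of the 78 members and for 6197 of 14058 genes. The count over all genes includes falling genes, where a weaker fall gives a larger value, so the counts are not like for like. Quartiles over all genes were -0.36 and 0.36 in AppSAA;TfRmu/hu mice and -0.47 and 0.47 in WT;TfRmu/hu mice.

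The difference between the genotypes' responses was tested as an interaction. One member, Mrpl33, was called, with a smaller rise in AppSAA;TfRmu/hu mice; of all genes, 3.79% were called higher and 5.35% lower in this test. Mrpl33, a small protein of the large subunit and the shortest member at 65 codons, was at 66.0, 64.3, 50.7 and 56.2 CPM with ATV:ISO and 159, 153, 143 and 157 CPM with ATV:4D9 in WT;TfRmu/hu mice. In AppSAA;TfRmu/hu mice it was at 92.9, 109, 82.2 and 81.8 CPM with ATV:ISO, 98.5, 112, 78.5 and 85.5 CPM with 4D9 and 184, 160.3, 138 and 143 CPM with ATV:4D9. The groups given ATV:4D9 overlapped between genotypes, while those given ATV:ISO did not. The rise was 1.37 ± 0.12 in WT;TfRmu/hu against 0.77 ± 0.12 for AppSAA;TfRmu/hu, a difference of -0.59 ± 0.17 (adjusted p = 0.0303). The call was lost within cells of 5000 to 15000 UMIs (-0.34, adjusted p = 0.339) and without any 1 of 6 mice (-0.50 to -0.58, adjusted p 0.0543 to 0.0776), namely those of pool 3 (ATV:4D9) and pool 2 (ATV:ISO) among AppSAA;TfRmu/hu mice, and of pools 1 and 4 (ATV:4D9) and pools 3 and 4 (ATV:ISO) among WT;TfRmu/hu mice. When the pool was a block, 16 members were called, 14 large and 2 small, all with a smaller rise in AppSAA;TfRmu/hu mice, where 16.9% of all genes were called higher and 13.6% lower, and Mrpl33 stayed first (-0.60 ± 0.09, adjusted p = 1.27e-04). Scaled to UMIs per cell, which moved the median of all genes from 0.04 to -0.30, 33 members were called lower (15.6% of all genes lower and 0.27% higher), with Mrpl33 at -0.94 (adjusted p = 5.67e-04).

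With ATV:ISO, 12.8% of the members were called higher in AppSAA;TfRmu/hu than in WT;TfRmu/hu mice, near the share of all genes (14.4%). The count was larger with the pool as a block, as given below. Of the large subunit, 8 genes were called higher in AppSAA;TfRmu/hu mice (Mrpl11, Mrpl20, Mrpl27, Mrpl30, Mrpl33, Mrpl51, Mrpl52 and Mrpl54). Of the Mrps symbols 2 were, namely Mrps21 and Mrps36, the latter placed outside the ribosome. None was called lower. Among all genes, 14.4% were called higher and 13.7% lower. The medians were 0.13 for the large and 0.07 for the small subunit, against -0.06 over all genes. Mrpl54, a protein particular to mitochondrial ribosomes, was at 41.0, 39.2, 32.9 and 34.9 CPM in WT;TfRmu/hu and 64.6, 66.9, 53.8 and 56.1 CPM in AppSAA;TfRmu/hu mice, with no overlap (log2 fold change 0.71 ± 0.12, adjusted p = 2e-04). Blocking on the pool, 33 members were called, 30 higher and 3 lower (Mrpl10, Mrpl47 and Mrps31), where 21.5% of all genes were called higher and 29.4% lower. With pools 2 to 4 alone, 20 were called (15.2% and 15.7% of all genes). The count was 2 within cells of 5000 to 15000 UMIs (7.91% and 2.72%), and 5 without the pool 1 or the pool 2 AppSAA;TfRmu/hu mouse or without the pool 3 or the pool 4 WT;TfRmu/hu mouse.

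The direction of the small subunit sum between the genotypes given ATV:ISO depended on the scaling. The unscaled share of UMIs was 0.36% in each, with a ratio of 1.00. The large subunit share was higher in AppSAA;TfRmu/hu mice in all 4 pools, by a ratio of 1.02, and the small subunit share was lower in all 4, by a ratio of 0.966, while after TMM scaling the large and small subunit sums were higher in all 4 pools, by 1.16-fold and 1.10-fold. Cytosolic ribosomal proteins took 10.7% ± 0.322 of the UMIs in WT;TfRmu/hu mice of this group, against 16.6% ± 1.19 with AppSAA;TfRmu/hu.

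With ATV:4D9, no member was called between the genotypes by edgeR, where 7.84% of all genes were called higher and 3.98% lower with AppSAA;TfRmu/hu. There were 3 members with an unadjusted p under 0.05, and DESeq2 and limma voom called none. With the pool as a block, 9 were called (17% of all genes higher and 14.4% lower), of which 6 were higher (Mrpl24, Mrpl27, Mrpl30, Mrpl52, Mrpl54 and Mrps24) and 3 lower (Mrpl14, Mrpl49 and Mrps11). The unscaled share of UMIs was lower in AppSAA;TfRmu/hu mice in all 4 pools, by a ratio of 0.937, and the TMM-scaled large subunit sum was higher in 3 of 4 pools, by a ratio of 1.03. Between 4D9 and ATV:ISO in AppSAA;TfRmu/hu mice, no member had even an unadjusted p under 0.05, no tool called a member, and 0% of all genes were called higher and 0% lower by edgeR. Counts of all genes at an unadjusted p under 0.05 are not given here for either comparison.

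Most of the 10 members called higher in AppSAA;TfRmu/hu mice dosed with ATV:ISO had short coding sequences. Of the 26 members with the shortest coding sequence (65 to 160 codons), 9 were called higher, of the middle 26 (166 to 251 codons) 1 was, and of the longest 26 (252 to 442 codons) none was, beside 14.4% of all genes. The Spearman correlation of coding length with log2 fold change was -0.64 across the 78 members and -0.18 across 12257 genes with a coding length. For ATV:4D9 over ATV:ISO it was -0.37 across members for WT;TfRmu/hu and -0.10 for AppSAA;TfRmu/hu mice (-0.16 and -0.13 across all genes). Genes of one library share its depth and composition, so these values describe the mice and were not tested.

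**Figure D3:**
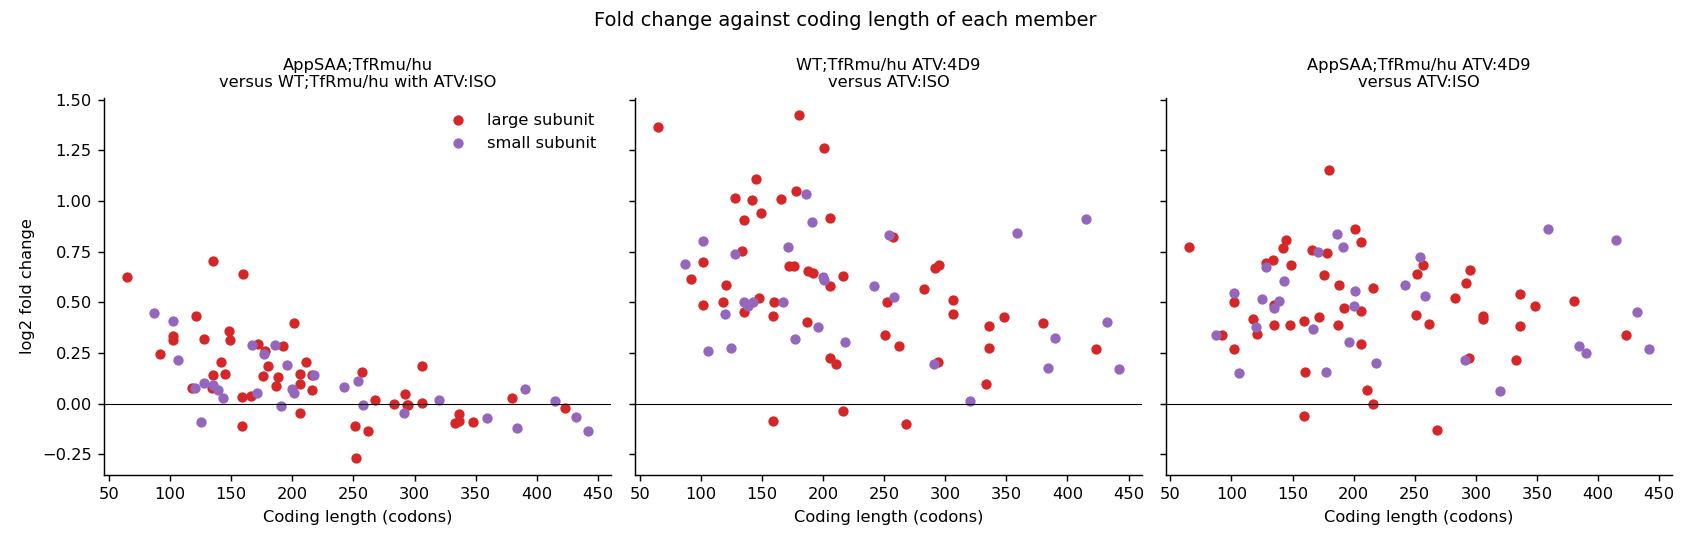
Log2 fold change (y axis) against coding length in codons (x axis) for the 78 members in 3 comparisons, by subunit. Between the genotypes given ATV:ISO (left) values decline with length (Spearman -0.64), and with ATV:4D9 in AppSAA;TfRmu/hu mice (right) they show little slope (-0.10).

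The other genes of mitochondrial translation were called in both directions, against 30.8% of all genes higher and 32.5% lower in WT;TfRmu/hu mice. In WT;TfRmu/hu mice dosed with ATV:4D9, 9 of 29 mitochondrial ribosome assembly genes were called higher (31%) and 7 lower (24.1%), with C1qbp, a matrix chaperone, at a log2 fold change of 1.12 and Rcc1l at 1.09, and with Ngrn at -0.63. Of 18 mitochondrial translation factors, 7 were higher (38.9%) and 3 lower (16.7%), from 1.02 for the elongation factor Gfm1 to -0.82 for the initiation factor Mtif3. Of 20 mitochondrial tRNA synthetases, 11 were higher (55%) and 3 lower (15%), from 0.94 for Pars2 to -0.83 for Wars2. Of 15 genes of mitochondrial genome transcription and copying, 4 were higher (26.7%), among them Top1mt (0.50), and 5 lower (33.3%), among them the helicase Twnk (-0.56). For AppSAA;TfRmu/hu mice, where 27.9% of all genes were called higher and 27.1% lower, these lists had 9 higher (31%) and 3 lower (10.3%), 8 (44.4%) and 2 (11.1%), 10 (50%) and 1 (5%), and 3 and 3 calls (20% each).

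The partners of the ribosome's products were measured beside them, against the same shares of all genes. Of 77 nuclear subunits of the respiratory chain, 72 were called higher (93.5%) and none lower with ATV:4D9 in WT;TfRmu/hu mice (median 0.73), while for AppSAA;TfRmu/hu mice 61 were higher (79.2%) and 2 lower (median 0.41). Of the 13 mitochondrially encoded mRNAs, 6 were called higher in WT;TfRmu/hu mice (46.2%, median 0.38) and none in AppSAA;TfRmu/hu mice (-0.03). None of the 13 had an unadjusted p under 0.05 in AppSAA;TfRmu/hu mice, while 8415 of 14058 genes did. Cytosolic ribosomal proteins had 68 of 81 called higher (84%) and 1 lower in WT;TfRmu/hu mice (median 0.55), while for AppSAA;TfRmu/hu mice 13 were higher (16%) and 8 lower (9.88%, median 0.05). The interaction was called lower for 44 of those 81 (54.3%), for 9 of the 77 nuclear respiratory subunits (11.7%) and for 1 of the 13 mitochondrial mRNAs (7.69%), beside 5.35% of all genes. With ATV:ISO, where 14.4% of all genes were called higher and 13.7% lower, 80 of the 81 cytosolic ribosomal proteins were called higher in AppSAA;TfRmu/hu than in WT;TfRmu/hu mice (median 0.81), as were 46 of the nuclear respiratory subunits (59.7%, median 0.42) and 8 of the mitochondrial mRNAs (61.5%, median 0.53), while 6 of the 20 mitochondrial tRNA synthetases were called lower (30%) and none higher.

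Among 12 tested regulators of mitochondrial genes, 3 rose (25%) and 3 fell (25%) in each genotype with ATV:4D9, shares near or below those of all genes. Tfam, the packaging factor of mitochondrial DNA, rose by 0.43 and 0.42 on the log2 scale in WT;TfRmu/hu and AppSAA;TfRmu/hu mice, Pprc1, a coactivator, by 0.72 and 0.44, and Myc by 0.53 and 0.35. Nrf1 fell by 0.44 and 0.25, Gabpa by 0.34 and 0.26 and Esrra by 0.32 and 0.18. Nrf1, Gabpa and Myc encode factors whose motif letters were counted above. The YY1 motif was counted too, and the value of Yy1 is not given here.

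**Figure D4:**
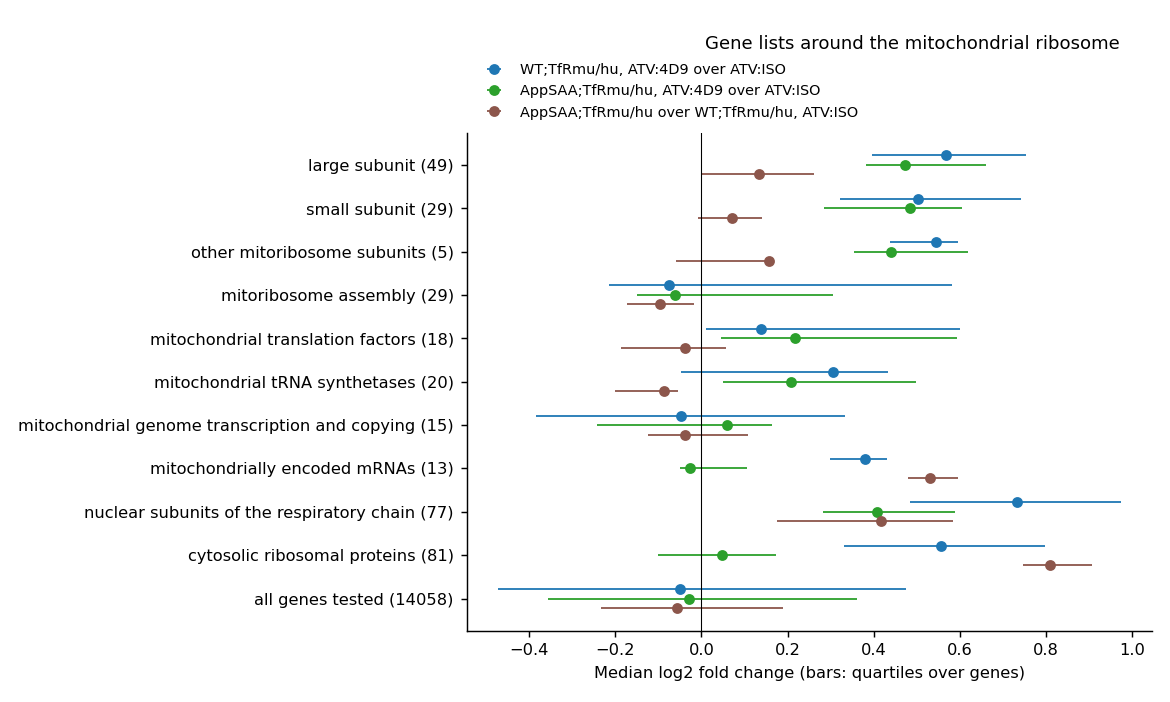
Median log2 fold change (x axis, bars from the lower to the upper quartile over genes) of each gene list, with the number of genes tested in brackets, for 3 comparisons of 4 mice each. The large and small subunits lie at 0.57 and 0.50 (WT;TfRmu/hu) and 0.47 and 0.48 (AppSAA;TfRmu/hu) with ATV:4D9, and cytosolic ribosomal proteins lie at 0.55 and 0.05.

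The deposited annotation assigned the cells to 6 clusters, numbered 0 to 5. Cluster 0 was led by Crybb1 and P2ry12, cluster 1 by Spp1 and Gpnmb, cluster 2 by Lgals3 and C5ar1, cluster 3 by Klf2 and Tsc22d3, cluster 4 by the cell cycle genes Ube2c and Hmmr, and cluster 5 by the interferon-induced genes Iigp1 and Rsad2, and the 5 microglia markers had UMIs in every mouse's sum of every cluster. The clusters were built from the expression of the same cells, so their levels are a description. Over mice with at least 20 cells, the large subunit sum was 2400 ± 144 CPM (unscaled, SD) in cluster 0 (n = 20 mice), 2352 ± 179 in cluster 1 (n = 16), 3077 ± 312 in cluster 2 (n = 20), 2240.1 ± 140 in cluster 3 (n = 20), 3286 ± 278 in cluster 4 (n = 16) and 2670.1 ± 363 in cluster 5 (n = 17). The small subunit sum was 1316 ± 72.7, 1207 ± 91.6, 1616 ± 138, 1210.1 ± 72.8, 1630 ± 133 and 1405 ± 188 CPM in the same order. By CPM, clusters 2 and 4 were high for both subunits, clusters 1 and 3 low, and cluster 5 had the widest spread. The median ratio of cluster 1 to cluster 0 of the same mouse was 0.972 (large) and 0.910 (small). Cluster 2 was above cluster 0 of the same mouse in 20 of 20 mice for both subunits (median 1.23-fold and 1.21-fold) and cluster 4 in 16 of 16 (1.33-fold and 1.24-fold). Cluster 4 exceeded cluster 2 in the large subunit in all 4 mice of each of 4 groups, but by 1.03-fold to 1.06-fold on average, and the small subunit ratio lay between 0.982 and 1.03.

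In the 13 mice with a sum in every cluster (1 WT;TfRmu/hu and 12 AppSAA;TfRmu/hu), 22 large and 11 small subunit genes had their highest mean CPM in cluster 2 and 20 large and 13 small in cluster 4. The lowest mean CPM was in cluster 1 for 27 large and 20 small and in cluster 3 for 18 large and 6 small subunit genes. The next values are from the 16 mice with sums in both clusters 2 and 4, none of them WT;TfRmu/hu with ATV:ISO. Mrpl33 had 184 ± 17.5 CPM in cluster 4 and 134 ± 18.99 in cluster 2, and was higher in cluster 4 in 16 of 16 mice. Mrpl51, singled out after its values were seen, had 136 ± 16.7 CPM in cluster 4 and 82.8 ± 8.95 in cluster 2, again in 16 of 16 mice. Mrps18b had 40.3 ± 12.7 CPM in cluster 4 and 58.4 ± 6.69 in cluster 2, and was higher in cluster 4 in 0 of 16 mice. Mrpl9 and Mrpl43 had 30.0 ± 4.51 and 94.7 ± 7.07 CPM in cluster 4, below cluster 0 of the same mouse in 15 and 16 of 16 mice (means 39.1 and 115 CPM).

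**Figure D5:**
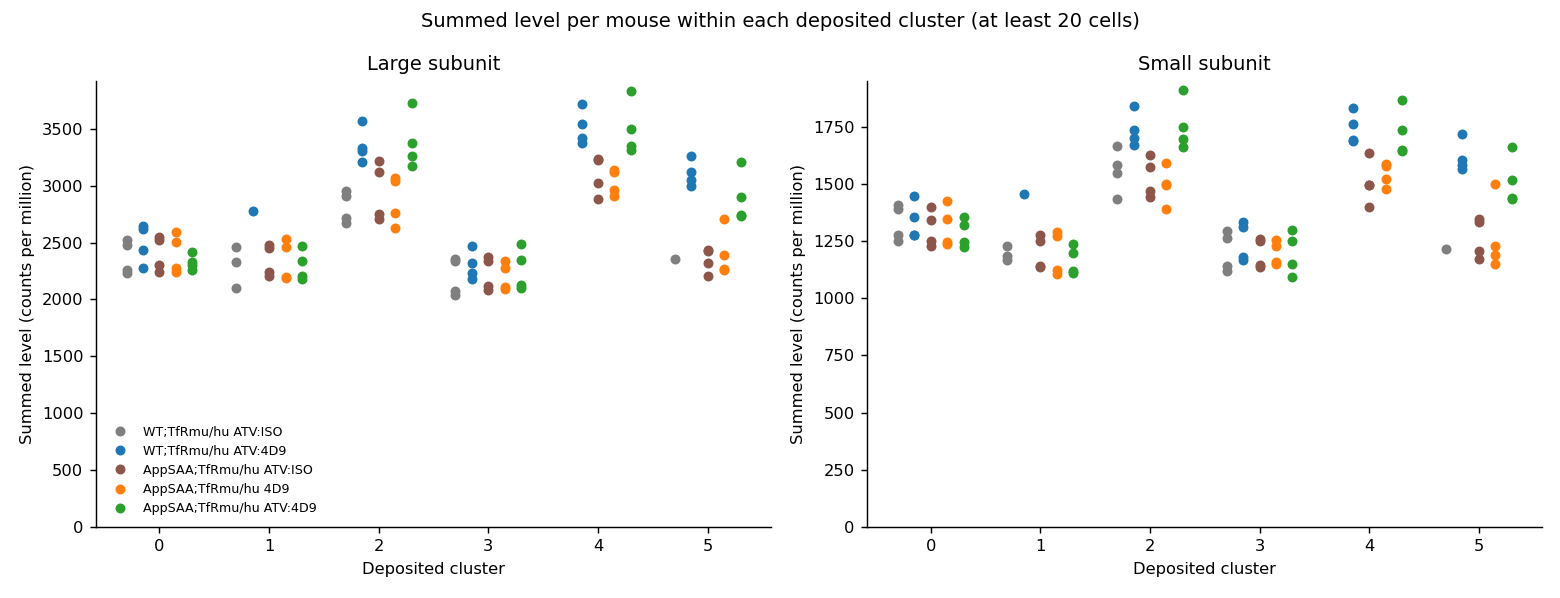
Summed level (CPM of each sum, y axis) of the large (left) and small (right) subunit in each deposited cluster (x axis), 1 point per mouse with at least 20 cells, colored by group. Clusters 2 and 4 sit above clusters 0, 1 and 3, and within clusters 2, 4 and 5 the mice dosed with ATV:4D9 tend to lie above the others.

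The shares of cells in these clusters differed between antibodies. In WT;TfRmu/hu mice, clusters 2 and 4 held 1.35% and 0.35% of cells with ATV:ISO and 47.8% and 40.0% with ATV:4D9. In AppSAA;TfRmu/hu mice they held 2.34% and 0.95% with ATV:ISO, 2.50% and 1.27% with 4D9 and 35.4% and 22.4% with ATV:4D9. Cluster 5 was above cluster 0 of the same mouse by CPM in 12 (large) and 9 (small) of 17 mice, among them every mouse given ATV:4D9. It held 0.74% and 4.21% of cells in WT;TfRmu/hu mice with ATV:ISO and ATV:4D9, and 2.48%, 1.504% and 22.4% in AppSAA;TfRmu/hu mice with ATV:ISO, 4D9 and ATV:4D9. The shares of cells in clusters 2 and 4 therefore moved together with the sums over all cells, and their part in them was not tested.

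Within a cluster, differences between antibodies were smaller. In cluster 2, the large subunit sum was 2814 ± 141 CPM with ATV:ISO (133 cells of 4 mice) and 3358 ± 153 CPM with ATV:4D9 in WT;TfRmu/hu mice, and 2949 ± 257, 2875 ± 214 and 3387 ± 242 CPM with ATV:ISO, 4D9 and ATV:4D9 in AppSAA;TfRmu/hu mice. The median log2 fold changes in cluster 2 were 0.28 for the large and 0.17 for the small subunit with WT;TfRmu/hu mice, against 0.26 and 0.25 with AppSAA;TfRmu/hu mice. In WT;TfRmu/hu mice 3 members were called higher and none lower, namely Mrpl33 (0.69 ± 0.15, adjusted p = 0.0065), Mrpl18 (0.64 ± 0.15) and Mrpl14 (0.57 ± 0.15), where 3.19% of all genes were called higher and 2.69% lower. For AppSAA;TfRmu/hu mice, 13 were called higher and none lower, with backgrounds of 6.89% and 6.3%. They were Mrpl1, Mrpl14, Mrpl18, Mrpl40 and Mrpl42 of the large subunit and Mrps5, Mrps11, Mrps14, Mrps15, Mrps18c, Mrps25, Mrps28 and Mrps36. Of the 3 calls in WT;TfRmu/hu mice, limma voom made only that of Mrpl33 (1.34% of all genes higher). With the pool as a block the counts were 10 (5.84% of all genes higher and 5.14% lower) and 31 (12.6% and 12.2%). The count of 13 fell to 3 without the pool 3 mouse and to 8 without the pool 1 or the pool 4 mouse given ATV:ISO, and to 5 without the pool 1 mouse given ATV:4D9. The count of 3 in WT;TfRmu/hu mice fell to 1 without the pool 4 mouse given ATV:ISO. Shares of all genes called in these fits are not given here. A fall in calls over all genes can therefore not be told apart from a fall in the members.

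In cluster 0 the large subunit sums were close, at 2373 ± 151 CPM with ATV:ISO and 2493 ± 174 CPM with ATV:4D9 in WT;TfRmu/hu mice and 2402 ± 157 and 2326 ± 66.2 CPM in AppSAA;TfRmu/hu mice. The WT;TfRmu/hu mouse given ATV:4D9 was above the ATV:ISO mouse of its pool in all 4 pools. Of 49 large subunit genes, 41 had a positive log2 fold change there (median 0.11), beside 5595 of 11691 genes. In AppSAA;TfRmu/hu mice 24 of the 49 did. One member was called, Mrps11, higher with ATV:4D9 in WT;TfRmu/hu mice (0.63 ± 0.14, adjusted p = 0.0196), where 1.02% of all genes were called higher and 0.453% lower. The call was lost without any 1 of 5 mice, namely those of pools 1 and 4 (ATV:4D9) and of pools 2, 3 and 4 (ATV:ISO), while DESeq2 called 2 members there (2.1% of all genes higher and 0.744% lower) and the fit with pool as a block 5 (5.23% and 3.74%). None was called between antibodies in AppSAA;TfRmu/hu mice (0.53% and 0.137% of all genes). There edgeR gave 2 members an unadjusted p under 0.05, beside 1172 of 11691 genes. None was called between the genotypes given ATV:ISO either (0.222% and 0.0513% of all genes). There no member had an unadjusted p under 0.05, beside 528 of 11691 genes. In cluster 1, which held 38.3% of cells in AppSAA;TfRmu/hu mice dosed with ATV:ISO, no member was called with ATV:4D9 (1.06% and 0.451% of all genes). An unadjusted p under 0.05 was found for 2 members, beside 1251 of 12182 genes. With the pool as a block 4 members were called, 2 large higher and 2 small lower (4.43% and 3.34% of all genes). DESeq2 and limma voom called none in these 3 tests.

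Between the genotypes given ATV:4D9, no member was called by edgeR in cluster 2 (1.94% of all genes higher and 0.125% lower), cluster 4 (2.49% and 0.273%) or cluster 5 (3.87% and 3%). Members at an unadjusted p under 0.05 numbered 0, 1 and 3, beside 741 of 9618, 1167 of 11342 and 1898 of 9869 genes tested. DESeq2 called none, and limma voom called 1 lower in cluster 5 (4.01% of all genes) and none in the others. The fit with a pool block called 2 members higher in cluster 4 (6.44% of all genes), 1 lower in cluster 5 (7.99%) and none in cluster 2 (4.6% higher and 2.79% lower). In cluster 4 the large subunit sum was 3515 ± 150.2 CPM in WT;TfRmu/hu and 3501 ± 235 CPM in AppSAA;TfRmu/hu mice dosed with ATV:4D9, beside 3092 ± 172 CPM with ATV:ISO and 3035 ± 114 CPM with 4D9 in the few cycling cells of AppSAA;TfRmu/hu mice. In cluster 5 it was 3108 ± 114 CPM in WT;TfRmu/hu and 2897 ± 219 CPM in AppSAA;TfRmu/hu mice dosed with ATV:4D9, and 2347 ± 107 CPM in AppSAA;TfRmu/hu mice dosed with ATV:ISO. In cluster 3 it was 2202 ± 166 and 2300 ± 126 CPM in WT;TfRmu/hu mice dosed with ATV:ISO and ATV:4D9. In AppSAA;TfRmu/hu mice it was 2227 ± 149, 2206 ± 122 and 2264 ± 187 CPM with ATV:ISO, 4D9 and ATV:4D9. The comparison of antibodies was not tested in clusters 3, 4 and 5, nor in cluster 1 of WT;TfRmu/hu mice, and cluster 3 was not tested between genotypes.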

How the data were processed

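Brain myeloid cells of 20 mice (4 pools of 5, 1 mouse of each group, CellPlex tags) were profiled with single-cell 3′ RNA libraries. Per the labels, the authors used Cell Ranger version 6.1.1 with the mm10 build and deposited UMI counts per gene and cell without normalization together with each cell's mouse, group, pool and cluster (resolution 0.2), so differences in depth between cells remain in the values. The sources differ on the tissue (cortex, with or without hippocampus) and on the sort (CD11b+, with or without CD45). How doublets were treated upstream is not given in the sources used here. No doublet caller was run, and cells carrying RNA of 2 mice or types could remain.

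Counts were added up over the cells of a mouse, or of its cells in 1 cluster if at least 20. Groups were compared with the quasi-likelihood test of edgeR 4.0.16 (R 4.3.3, TMM, filterByExpr, all 5 groups in 1 fit, Benjamini-Hochberg over all genes tested, called at 0.05), a script tested on simulated data. Cluster levels are CPM without TMM scaling. DESeq2 1.42.0, limma 3.58.1 voom, other scalings, the pool as a block, cells of 5000 to 15000 UMIs and leaving out each mouse were alternatives, and the mice of pools 2 to 4 alone were added after the data were seen. The labels put 1 mouse of every group in each pool, and mice sharing a pool deviated together from their group means (correlation above 0.1 in all 40 pairs, 0.143 to 0.607 over all genes), so the pool pairs the mice; blocked values stand beside results they change. The members, gene lists, motifs and tests were chosen with earlier results of these data known. Genes were named by size of change (in each comparison the 5 largest and 5 smallest changes of the large and the 3 largest and 3 smallest of the small subunit, mean CPM at least 10), with stalk, decoding, rescue, Mrps18, Mrps30 and Mrps36 genes and called members added. Positions are from GENCODE release M21 and promoters from RefSeq (GRCm38.p6). A marker gene of the microglia list is not reported here and was left out of its sums.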

Additional observations from a re-analysis of the deposited data

Results flagged for a closer look

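In groups of 4 mice, the gap between the highest or lowest mouse and the next was compared with Dixon's 95% limit in 85 groups of values, where chance marks about 1 in 20, and 10 groups passed. In all 10 the pool 1 mouse was the highest. It was so for the large subunit sum in AppSAA;TfRmu/hu mice dosed with ATV:4D9 (4193 CPM, the others 3064 to 3254) and the small subunit sum in WT;TfRmu/hu mice dosed with ATV:4D9 (1883 CPM, the others 1577 to 1628). The ratio of large to small was 1.98 in AppSAA;TfRmu/hu mice dosed with ATV:4D9 and 1.83 in WT;TfRmu/hu mice dosed with ATV:ISO (the others at most 1.95 and 1.80).

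The same mouse of AppSAA;TfRmu/hu given ATV:4D9 stood out for Mrpl12 (176 CPM, the others 110 to 113), Mrpl18 (179 CPM, the others 124 to 128), Mrps28 (79.5 CPM, the others 51.0 to 53.6) and Mrps30 (32.3 CPM, the others 22.5 to 23.7). In WT;TfRmu/hu mice dosed with ATV:4D9 the pool 1 mouse stood out for Mrpl12 (157 CPM, the others 116 to 118) and Mrps28 (64.2 CPM, the others 52.2 to 53.7). Many of these values come from the same mice and are not independent.

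The response of Mrpl33 to ATV:4D9 differed between the genotypes in the interaction test, by -0.59 on the log2 scale (adjusted p = 0.0303).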

How the results depend on the processing

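The counts of called members for ATV:4D9 over ATV:ISO in either genotype and over 4D9 stayed within 1.5 times of the main count under every alternative run, and lay between 60 and 66, 56 and 67, and 54 and 68 when each mouse was left out in turn. With the pool as a replicate block, 33 members were called between the genotypes given ATV:ISO (10 without it), 9 between the genotypes given ATV:4D9 (0) and 16 in the interaction (1). In clusters the block gave 5 for ATV:4D9 in cluster 0 of WT;TfRmu/hu mice (1), 4 in cluster 1 of AppSAA;TfRmu/hu mice (0), 10 and 31 in cluster 2 of WT;TfRmu/hu and AppSAA;TfRmu/hu mice (3 and 13), and 2 and 1 between the genotypes given ATV:4D9 in clusters 4 and 5 (0 each), and it changed no other count by more than 1.5 times. Within cells of 5000 to 15000 UMIs the first 3 counts were 2, 2 (1 higher and 1 lower, beside 9.31% and 7.18% of all genes) and 0, and with pools 2 to 4 alone 20, 0 and 6 (lower, 6.62%). Scaling to UMIs per cell gave 48 (all higher, as were 22.9% of all genes), 1 (lower, 2.43%) and 33 (lower, 15.6%), and 25 and 28 in cluster 2 (higher, 9.9% and 11.1%) and 1 in cluster 5 (lower, 4.64%). It moved the median of all genes to 0.79 (WT;TfRmu/hu) and 0.47 (AppSAA;TfRmu/hu) for ATV:4D9 over ATV:ISO, with 68.2% of all genes higher and 2.35% lower in the former (30.8% and 32.5% with TMM), and relative to that median the large subunit stood at 0.62 and 0.51. DESeq2 gave 2 in cluster 0 and limma voom 1 in cluster 2 of WT;TfRmu/hu mice and 1 in cluster 5. The cause of these shifts was not tested.

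Leaving out each mouse gave 5 to 15 members between the genotypes given ATV:ISO, with 5 without the pool 1 or 2 mouse of AppSAA;TfRmu/hu or the pool 3 or 4 mouse of WT;TfRmu/hu, and 0 to 5 in the interaction. In clusters the ranges were 0 to 1 (cluster 0) and 1 to 4 (cluster 2) in WT;TfRmu/hu mice, 3 to 15 in cluster 2 of AppSAA;TfRmu/hu mice and 0 to 2 in cluster 5. Counts with a mouse left out, here and above, stand without the share of all genes called in the same fit. Changes in calls over all genes can therefore not be told apart from changes in the members. Of the values of single named genes under all alternatives, 6358 kept their side of the threshold, 171 passed it newly, 82 lost it and none reversed a called direction. Direction was compared only for values called in the main fit. A minimum of 50 cells could not be fitted for cluster 0 in AppSAA;TfRmu/hu and cluster 2 in WT;TfRmu/hu mice. Cluster sums of few cells (as few as 23 in a tested comparison) limit what the cluster tests can detect. With 4 mice a group, the p-values measure spread between mice handled in shared pools.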
